A study of Homo sapiens with 18 samples.

Results

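Asparagine, proline and cysteine are amino acids that human cells can make for themselves, and the levels of 7 transcripts for enzymes of these routes were examined in A1847 cells, an ovarian cancer line. The enzymes were ASNS, CBS, CTH, ALDH18A1, PYCR1, GPT2 and GOT1, chosen by gene symbol among 57736 genes of the count table. All 7 passed the filter on low counts that left 17317 genes for testing, and PYCR1 passed it only through the CARM1 knockout libraries. The cells came in 3 genotypes: control cells, which the labels call wild type for CARM1 and XBP1, cells with CARM1 knocked out, and cells with XBP1 knocked down. Each genotype was given vehicle or 5 μg/ml tunicamycin for 8 h, with 3 replicates in each of the 6 groups and 18 libraries in all. The knockout was made with lentiviral CRISPR and the knockdown with a lentiviral short hairpin RNA. Whether the control cells carried a control vector, and whether the knockout cells were 1 clone or a pool, is not given in the sources used here. Both modified genotypes were compared with the same control libraries. Nothing in the labels says that replicates were separate cultures, so that p-values measure only the spread between these libraries, which may be technical.

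Only the 3′ ends of the mRNA were sequenced, and library totals ranged from 9367462 to 13917212 counts. Levels are given as CPM, counts scaled to a common total with TMM factors, and in bulk samples a lower level from fewer expressing cells cannot be told apart from less RNA in each cell. Differences between groups were tested with edgeR's quasi-likelihood F test over all 17317 genes, with calls at an FDR of 0.05, and SE is the standard error of a log2 fold change. For 3 against 3 libraries the smallest p of an exact permutation test is 0.1, and none was run. CARM1 transcript was still counted in knockout cells, at 74.2 ± 3.11 CPM under vehicle against 162 ± 2.69 in control cells (SD, n = 3), and 3′ counts do not show whether a cut further upstream disrupted the protein. XBP1 transcript was 25.4 ± 1.25 CPM in knockdown cells under vehicle against 45.9 ± 4.50 in control cells (SD, n = 3). With tunicamycin it was 71.6 ± 2.35 against 149.8 ± 3.02 CPM, so that it was lowered and not absent. In the knockdown it still rose 2.80 times with tunicamycin. The CARM1 knockout libraries stood apart from the rest. Their log CPM values correlated across genes at 0.73 to 0.775 with the other 12 libraries, whereas control and knockdown libraries correlated at 0.961 to 0.987. Of 9 epithelial and Müllerian markers, 7 could be tested, and under vehicle the knockout had 6 higher and 1 lower than control cells. Of all genes tested, 37.5% were higher and 36.9% lower. CDH1, PAX8 and WT1 passed the filter only through knockout libraries, so that they had to be higher there. KRT19, the lower one, passed it only through control libraries. The summed level of all 9 was 311 to 332 CPM in vehicle-treated control cells, 131 to 144 in knockdown cells and 2273 to 2340 in knockout cells. KRT8 and KRT18 made up most of it, with means of 58.4 and 260 CPM in control cells, 19.3 and 114.7 in knockdown cells and 734.5 and 1482 in knockout cells. With tunicamycin the sums were 462 to 489, 198 to 214 and 1881 to 1987 CPM in the same order. The ovarian markers MUC16 and SOX17 were at 0 to 1 counts in every library, and PAX8, a Müllerian lineage factor, had 0 to 2 counts in control and knockdown libraries but 465 to 840 in the knockout. KRT19 was at 0 in all knockout libraries. Of the fibroblast markers, COL1A1 was higher and COL3A1 lower in the knockout, and the leukocyte marker PTPRC never exceeded 11 counts. The labels name A1847 for all 18 libraries, and whether the knockout cells are of the same origin as the others was not tested. In every comparison with the knockout below, including the interactions, the loss of CARM1 cannot be told apart from these other differences between the cell populations.

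ASNS makes asparagine from aspartate, with the nitrogen of glutamine. CBS and CTH carry out transsulfuration, in which CBS joins homocysteine and serine to cystathionine and CTH splits cystathionine to release cysteine. ALDH18A1 converts glutamate to pyrroline-5-carboxylate in mitochondria, and PYCR1 reduces that product to proline. GPT2 and GOT1 are aminotransferases, GPT2 for alanine in mitochondria and GOT1 for aspartate in the cytosol. Tunicamycin blocks N-glycosylation, so that unfolded proteins build up in the endoplasmic reticulum. The sensor PERK then slows translation but favours that of ATF4, a factor known to act with C/EBP partners on genes of amino acid supply, while the sensor IRE1 splices XBP1 mRNA into the form that encodes an active transcription factor.

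Promoter sequence is shown first because the regulators of these genes are known to bind short DNA motifs near the transcript start. RefSeq windows on the GRCh38.p14 assembly, from 250 bases before to 50 after the start, were found for 5 of the 7 enzymes, ASNS, CTH, CBS, ALDH18A1 and GOT1, in 8 windows. Motifs were searched on both strands. TGATGNAA is the C/EBP-ATF type, and TGACGT is a core shared by sites of ATF, CREB and XBP1. An extended XBP1 type, TGACGTGG, contains that core. CCACG is a part of the ER stress response element, which was also searched whole. TGATGNAA was present in 3.62% of 35116 windows, TGACGT in 7.98%, TGACGTGG in 0.729%, CCACG in 38.1% and the complete element in 0.0769%. The 250 bases before the start are printed 5′ to 3′ on the gene's strand for the 4 enzymes that held TGATGNAA or TGACGT, with matches to these motifs in capitals. They lie at chr7:97872409-97872658 (minus strand) for ASNS, chr10:99430625-99430874 (minus) for GOT1, chr1:70411018-70411267 (plus) for CTH and chr10:95656712-95656961 (minus) for ALDH18A1.
ASNS: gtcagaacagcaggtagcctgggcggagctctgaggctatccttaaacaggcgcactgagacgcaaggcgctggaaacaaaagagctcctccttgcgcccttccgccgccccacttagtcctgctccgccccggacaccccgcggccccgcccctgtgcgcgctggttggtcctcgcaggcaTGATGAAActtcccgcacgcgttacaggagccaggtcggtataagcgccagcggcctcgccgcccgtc
GOT1: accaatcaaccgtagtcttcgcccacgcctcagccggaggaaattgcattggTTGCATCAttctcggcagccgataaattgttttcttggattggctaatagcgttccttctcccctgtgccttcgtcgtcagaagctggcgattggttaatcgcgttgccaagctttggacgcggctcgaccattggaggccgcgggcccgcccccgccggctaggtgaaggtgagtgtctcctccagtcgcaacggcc
CTH: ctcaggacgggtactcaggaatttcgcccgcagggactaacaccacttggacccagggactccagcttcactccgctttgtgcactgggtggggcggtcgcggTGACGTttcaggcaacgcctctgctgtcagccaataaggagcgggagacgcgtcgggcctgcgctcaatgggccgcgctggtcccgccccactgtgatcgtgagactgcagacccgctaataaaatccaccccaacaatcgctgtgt
ALDH18A1: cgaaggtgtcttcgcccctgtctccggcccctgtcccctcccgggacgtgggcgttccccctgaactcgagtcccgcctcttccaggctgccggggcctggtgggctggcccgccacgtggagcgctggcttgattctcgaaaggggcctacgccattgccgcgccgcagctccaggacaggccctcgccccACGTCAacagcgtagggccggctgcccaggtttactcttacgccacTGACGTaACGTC
The ASNS match TGATGAAA lay at -68 to -61 from the start on the gene's own strand. A further ASNS window, not printed, has its 250 bases before the start at chr7:97872166-97872415. It held no match to any of the searched motifs. The GOT1 match lay at -198 to -191 on the other strand, where it reads TGATGCAA. CTH held TGACGT at -147 to -142. ALDH18A1 held TGACGT 3 times, at -58 to -53, -12 to -7 and -5 to 1, the last of which ends past the printed stretch, and the match at -60 to -53 was also TGACGTGG. CCACG alone was found in all 3 CBS windows. The complete ER stress response element was in none of the 8 windows. These matches describe the letters in the windows and do not show binding.

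**Figure D1:**
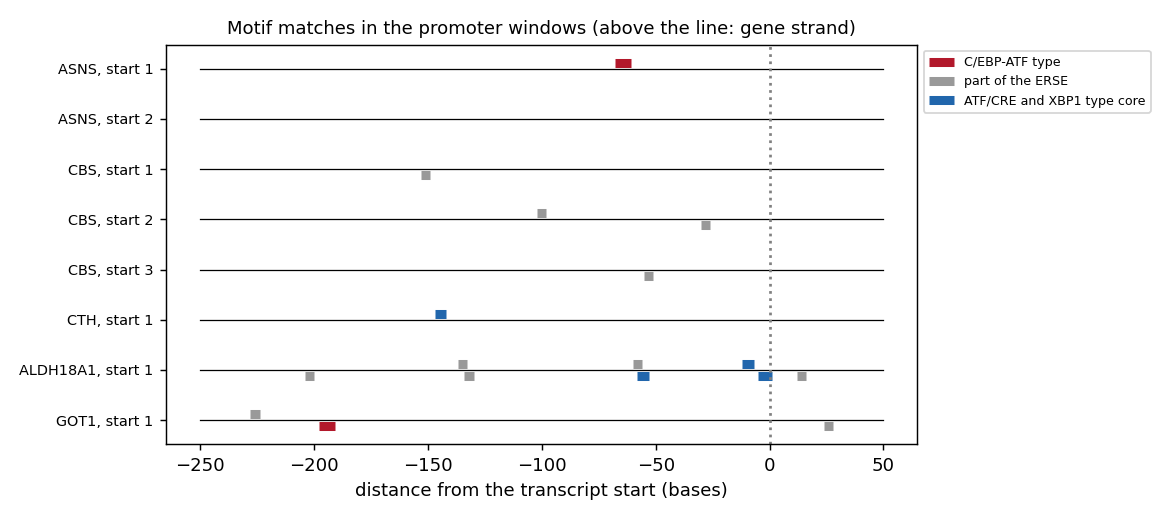
Motif matches in the 8 promoter windows of 5 enzymes, by distance from the transcript start in bases. Red marks TGATGNAA, blue TGACGT and grey CCACG, drawn above the line for the gene's strand and below it for the other. The longer TGACGTGG is not drawn. TGATGNAA appears in 1 ASNS window at -68 and in the GOT1 window at -198, and TGACGT in the CTH and ALDH18A1 windows. The other ASNS window holds no match.

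In control cells, tunicamycin raised 6 of the 7 enzyme transcripts, all but PYCR1, whereas 22% of all genes tested rose and 19.9% fell. Cysteine-releasing CTH, asparagine synthetase ASNS and the cytosolic aminotransferase GOT1 rose most, by 8.16, 7.64 and 5.48 times. The mitochondrial aminotransferase GPT2 rose 2.89 times, and CBS and ALDH18A1, the entry enzymes of transsulfuration and of proline synthesis, rose 1.63 and 1.38 times. The median log2 fold change of the 7 was 1.53, or 1.99 for the 6 without PYCR1, against 0 for all genes tested.

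ASNS (ENSG00000070669, GRCh37 chr7:97480989-97501854, minus strand) measured 48.5, 48.9 and 49.5 CPM in the control libraries with vehicle and 346, 383 and 384 with tunicamycin. The groups lay far apart, with a log2 fold change of 2.93 ± 0.0627 (SE, adjusted p = 4.0e-15). Its annotated pseudogenes took 0 to 3 counts per library.

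**Figure D2:**
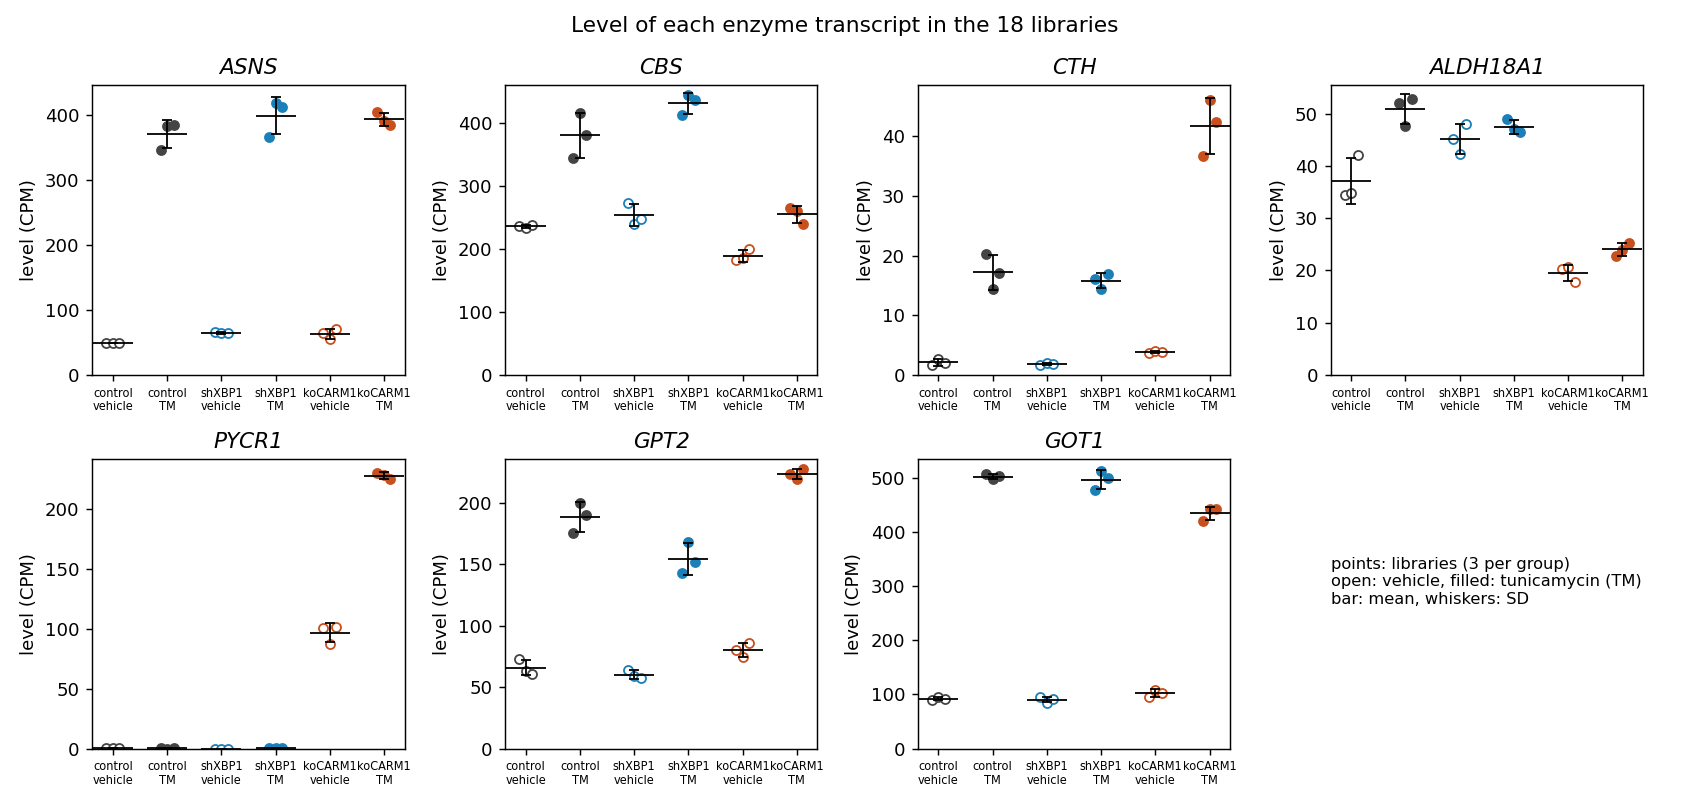
Level in CPM of each enzyme transcript in the 18 libraries, 3 per group, as open points for vehicle and filled points for tunicamycin, with the group mean as a bar and the SD as whiskers. ASNS, CTH, GPT2 and GOT1 separate by treatment in every genotype, ALDH18A1 is lowest in the knockout groups, and PYCR1 is near 0 outside them.

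For transsulfuration, CBS (ENSG00000160200, chr21:44473301-44497053, minus strand) stood at 236, 234 and 238 CPM with vehicle and at 345, 417 and 382 with tunicamycin, a log2 fold change of 0.70 ± 0.0639 (SE, adjusted p = 1.68e-07). CTH (ENSG00000116761, chr1:70876901-70905534, plus strand), the next enzyme of the route, was scarce with vehicle, at 1.62, 2.73 and 2.01 CPM, or 21 to 37 counts. With tunicamycin it reached 20.3, 14.4 and 17.0 CPM, a log2 fold change of 3.03 ± 0.192 (adjusted p = 2.13e-09). In neither gene did the groups overlap, and CTH had the wider interval of the change, 2.62 to 3.43 (95%), at its lower counts.

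For proline synthesis, ALDH18A1 (ENSG00000059573, chr10:97365698-97416468, minus strand) measured 34.4, 34.9 and 42.1 CPM with vehicle and 52.1, 47.6 and 52.9 with tunicamycin. The libraries did not overlap, and the log2 fold change was 0.46 ± 0.0878 (adjusted p = 0.000401). PYCR1 (ENSG00000183010, chr17:79890260-79900288, minus strand) was barely counted in control cells, with 2 to 6 counts per vehicle library and 1 to 6 per tunicamycin library. These values overlapped, and the pooled ratio of 0.963 had an exact 95% interval of 0.385 to 2.38, which covers counting error only, so that no change was detectable at this depth.

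Both aminotransferases rose. GPT2 (ENSG00000166123, chr16:46918274-46965201, plus strand) went from 73.0, 63.6 and 61.1 CPM to 175.5, 199.8 and 190.2, a log2 fold change of 1.53 ± 0.0739 (adjusted p = 7.52e-11). GOT1 (ENSG00000120053, chr10:101156627-101190381, minus strand) went from 90.7, 95.6 and 90.9 CPM to 506, 497 and 503, a log2 fold change of 2.46 ± 0.0535 (adjusted p = 4.83e-15). Every tunicamycin library lay above every vehicle library for both genes. Under each library left out in turn, the same 6 enzymes stayed called in control cells.

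In XBP1 knockdown cells, 6 of the 7 enzymes were higher with tunicamycin, beside 19.2% of all genes higher and 19% lower, and without PYCR1 the count was 5 of 6. The median log2 fold change of those 6 was 1.90 against 0, and 2.45 with PYCR1 included. ASNS, CTH, GOT1, GPT2 and CBS were called as in control cells, PYCR1 was called from a handful of counts, and ALDH18A1 did not pass. ASNS rose from 65.8, 64.1 and 64.0 CPM to 367, 419 and 412, a log2 fold change of 2.62 ± 0.0573 (adjusted p = 2.81e-14). CTH, the cysteine-releasing enzyme, rose from 1.66, 1.99 and 1.83 CPM to 16.0, 14.4 and 17.0 (log2 fold change 3.10 ± 0.163, adjusted p = 7.72e-10). None of these vehicle libraries reached a tunicamycin library.

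CBS rose from 274, 241 and 249 CPM to 414, 445 and 437 in the knockdown, a log2 fold change of 0.75 ± 0.0516 (adjusted p = 1.53e-08). The aminotransferase GPT2 rose from 64.2, 59.4 and 57.4 CPM to 143, 168 and 152 (1.35 ± 0.0664, adjusted p = 3.74e-10), and GOT1 from 95.3, 85.1 and 91.2 CPM to 478, 512 and 499.7 (2.45 ± 0.0521, adjusted p = 2.16e-14). Groups were again apart for all 3 genes. ALDH18A1, the entry enzyme of proline synthesis, measured 45.1, 42.3 and 48.0 CPM with vehicle and 49.0, 47.2 and 46.4 with tunicamycin. Here the groups overlapped, and the log2 fold change of 0.07 had a 95% interval of -0.08 to 0.22 (adjusted p = 0.50). PYCR1 had 0 to 1 counts per vehicle library and 5 to 10 per tunicamycin library, a pooled ratio of 23.3 with an exact 95% counting interval of 3.77 to 963 (adjusted p = 0.00342 in the fit).

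In CARM1 knockout cells all 7 enzymes were higher with tunicamycin, where 20.6% of all genes were higher and 18.8% lower, with a median of 1.52 against 0 (1.82 for the 6 without PYCR1). ASNS rose from 64.5, 55.2 and 70.1 CPM to 405, 392 and 385 (log2 fold change 2.68 ± 0.0571, adjusted p = 9.90e-20). CTH rose from 3.73, 4.03 and 3.78 CPM to 36.7, 46.0 and 42.4, a rise of 11.1 times and the largest of the 7 in these cells (3.47 ± 0.121, adjusted p = 5.45e-16). CBS rose from 183, 185 and 201 CPM to 265, 261 and 239.9 (0.47 ± 0.0455, adjusted p = 2.46e-08). In each of these genes the lowest tunicamycin library lay above the highest vehicle library.

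The proline enzymes both rose in the knockout. ALDH18A1 went from 20.2, 20.6 and 17.8 CPM to 22.8, 24.0 and 25.3, a small but separated change (0.33 ± 0.0902, adjusted p = 0.00572). PYCR1, well counted in these libraries alone, went from 100.6, 87.2 and 101 CPM to 229.8, 228 and 225 (1.28 ± 0.0501, adjusted p = 4.30e-15), a rise of 2.42 times in which the groups lay far apart. GPT2 rose from 79.9, 74.4 and 85.9 CPM to 224, 219 and 227 (1.52 ± 0.0488, adjusted p = 1.21e-16). GOT1 rose from 94.99, 109 and 103 CPM to 421, 442 and 441 (2.13 ± 0.0446, adjusted p = 7.89e-20), and neither aminotransferase had overlapping groups.

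**Figure D3:**
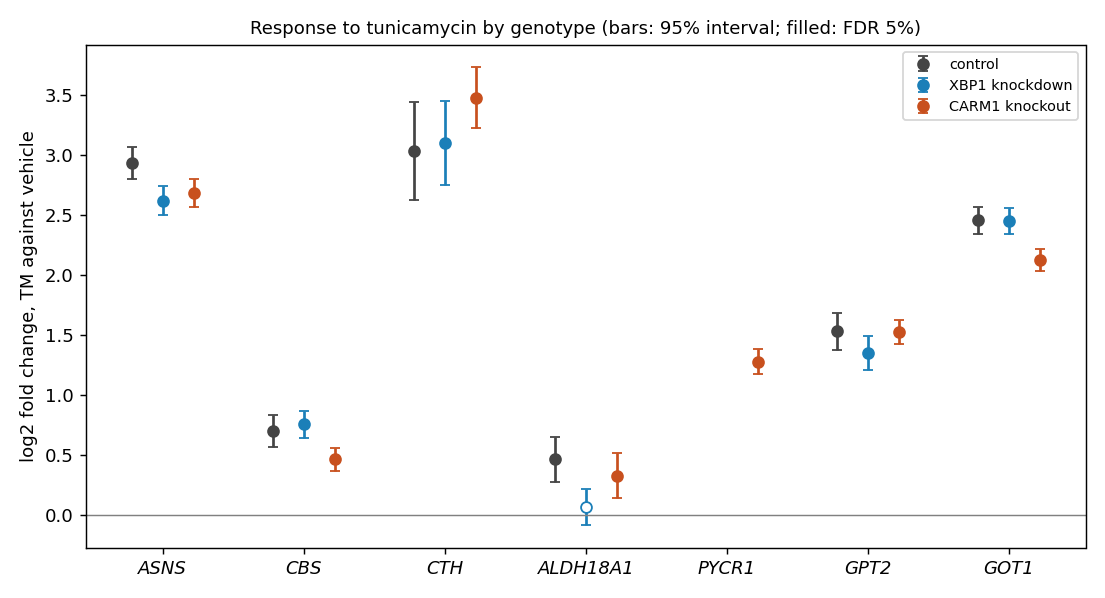
Log2 fold change of each enzyme transcript with tunicamycin against vehicle in control, XBP1 knockdown and CARM1 knockout cells, with 95% intervals as bars. Points are filled where the gene was called at the FDR of 0.05, and PYCR1 is drawn only for the knockout because its counts were 0 to 10 per library elsewhere. ALDH18A1 in the knockdown, at 0.07, is the open point.

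The difference in the rise between genotypes was tested with an interaction term of genotype and tunicamycin. For the CARM1 knockout, 3 of the 7 enzymes had a smaller rise than in control cells and none a larger one, where 12.4% of all genes had a negative and 10.5% a positive interaction. GOT1 differed by -0.35 ± 0.0696 on the log2 scale (adjusted p = 0.000867), and this call was kept in all 12 fits that left out 1 library, at -0.40 to -0.26. ASNS differed by -0.27 ± 0.0930 (adjusted p = 0.0385) and CBS by -0.26 ± 0.0850 (adjusted p = 0.0342). These calls depended on single libraries: that of ASNS was lost in 10 of the 12 fits, at -0.37 to -0.18 over all 12, and that of CBS in 7, at -0.28 to -0.13. With all genes kept, or only those with at least 10 counts in every library, GOT1 alone was called. ASNS was also lost with size factors of DESeq2 (-0.26, adjusted p = 0.0528). The intervals of the other differences were -0.12 to 0.97 for CTH, -0.42 to 0.11 for ALDH18A1, -0.23 to 0.17 for GPT2 and -0.05 to 2.49 for PYCR1, which rests on the few counts in control cells.

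For the XBP1 knockdown, none of the 7 interactions passed edgeR's test, where 0.364% of all genes were called positive and 1.67% negative. At an unadjusted p below 0.05 there were 3, ASNS at -0.31 (95% interval -0.48 to -0.13, adjusted p = 0.0645), ALDH18A1 at -0.39 (-0.63 to -0.15, adjusted p = 0.0916) and PYCR1 at 4.10, again from a handful of counts (adjusted p = 0.116). DESeq2 called 1, ASNS. The remaining intervals were -0.15 to 0.15 for GOT1, -0.12 to 0.24 for CBS, -0.40 to 0.05 for GPT2 and -0.50 to 0.65 for CTH.

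Set against control cells, the XBP1 knockdown changed few of these transcripts. Under vehicle 1 of 7 was higher and none lower, with 2.07% of all genes higher and 3.03% lower. That enzyme was ASNS, whose knockdown libraries all lay above the control libraries, at a mean of 64.6 ± 1.04 against 48.9 ± 0.498 CPM (SD, n = 3) and a log2 fold change of 0.39 ± 0.0611 (SE, adjusted p = 0.00145). ALDH18A1 was 0.27 higher on the log2 scale, with groups only just apart, at 42.29 to 47.96 against 34.43 to 42.12 CPM (adjusted p = 0.0993), and it was called without the control vehicle replicate 3, at 0.38. The 95% intervals were -0.02 to 0.22 for CBS, -0.30 to 0.03 for GPT2, -0.16 to 0.09 for GOT1 and -0.84 to 0.39 for CTH. PYCR1 had 1 pooled count in the knockdown and 12 in control cells, a ratio of 0.0819 (exact 95% interval 0.00192 to 0.553, adjusted p = 0.153).

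Under tunicamycin 1 of the 7 enzymes was lower in the knockdown and none higher, with 6.99% of all genes higher and 8.55% lower. The lower transcript was GPT2, which makes alanine, at 154 ± 12.8 against 188 ± 12.3 CPM (SD, n = 3), and its 3 knockdown libraries lay below the 3 control libraries. The difference was -0.29 ± 0.0639 (SE, adjusted p = 0.00613). CBS lay at the edge of the call, 0.18 higher with overlapping groups (95% interval 0.05 to 0.31, adjusted p = 0.0504), and was called without the control tunicamycin replicate 2, at 0.25, and without the knockdown tunicamycin replicate 1, at 0.21. The intervals for the rest were -0.01 to 0.23 for ASNS, -0.10 to 0.07 for GOT1, -0.24 to 0.05 for ALDH18A1 and -0.40 to 0.15 for CTH. PYCR1 had 22 against 11 pooled counts, a ratio of 1.98 with an exact interval of 0.923 to 4.53.

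The CARM1 knockout differed from control cells in most of the enzymes, as it did in most genes. Under vehicle 4 were higher and 2 lower, while 37.5% of all genes were higher and 36.9% lower. Under tunicamycin 3 were higher and 3 lower, while 38.4% of all genes were higher and 36.8% lower. PYCR1 is among the higher ones in both counts and had to differ there, since only the knockout libraries took it through the filter. Without it, 3 of 6 were higher and 2 lower under vehicle, and 2 higher and 3 lower under tunicamycin. The median log2 fold change of these 6 was 0.17 under vehicle, against -0.03 for all genes, and -0.06 under tunicamycin, against -0.02, and with PYCR1 it was 0.23 and 0.09.

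PYCR1, which completes proline synthesis, showed the widest gap. Knockout libraries held 886 to 1295 counts with vehicle and 2679 to 2871 with tunicamycin, and the other 12 libraries 0 to 10. Against control cells the pooled ratio was 285.5 under vehicle (exact 95% interval 163 to 553) and 691 under tunicamycin (386 to 1385). No test is given for this gap, because the filter that admitted PYCR1 had already used it. Of the 78 tested genes within 2 Mb of PYCR1, 9 were higher and 55 lower in the knockout under vehicle, with a median log2 fold change of -0.64. With tunicamycin 11 were higher and 52 lower, at -0.55. Around the other enzymes the medians under vehicle and tunicamycin were 0.33 and 0.22 for CTH, 0.20 and 0.11 for GPT2, -0.08 and 0.17 for CBS, -0.05 and -0.29 for ALDH18A1, -0.03 and -0.07 for ASNS, and -0.01 and -0.17 for GOT1.

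ALDH18A1, upstream of PYCR1 in the same route, was lower in the knockout. Its means were 19.5 ± 1.55 against 37.1 ± 4.33 CPM with vehicle and 24.0 ± 1.23 against 50.9 ± 2.85 with tunicamycin (SD, n = 3), with no overlap. The log2 fold changes were -0.97 ± 0.101 (adjusted p = 3.56e-07) and -1.08 ± 0.0756 (adjusted p = 4.99e-09). The transsulfuration enzymes moved apart. CBS was lower, at 189.7 ± 9.48 against 236 ± 2.00 CPM with vehicle and 255 ± 13.4 against 381 ± 36.1 with tunicamycin, by -0.36 ± 0.0479 (adjusted p = 5.05e-06) and -0.57 ± 0.0626 (adjusted p = 7.95e-07). CTH was higher, at 3.84 ± 0.159 against 2.12 ± 0.559 CPM and 41.7 ± 4.69 against 17.3 ± 2.93 CPM, by 0.81 ± 0.247 (adjusted p = 0.00808) and 1.28 ± 0.115 (adjusted p = 8.45e-08). In every one of these comparisons the knockout libraries lay wholly on one side of the control libraries.

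Differences in the other enzymes were smaller. ASNS was higher under vehicle, at 63.2 ± 7.52 against 48.9 ± 0.498 CPM (SD, n = 3) and a log2 fold change of 0.32 ± 0.0794 (adjusted p = 0.00196). Under tunicamycin its groups lay edge to edge, at 384.5 to 404.5 against 345.8 to 384.3 CPM, and 0.09 higher did not pass (95% interval -0.01 to 0.19, adjusted p = 0.0976), although DESeq2 called it, at 0.12, as did edgeR with size factors of DESeq2, at 0.12, with at least 10 counts in every library, at 0.14, and without the control tunicamycin replicate 3, at 0.13. GPT2 was 0.23 ± 0.0749 higher under vehicle (adjusted p = 0.0106), a call lost without the knockout vehicle replicate 3, at 0.18, and 0.25 ± 0.0512 higher under tunicamycin (adjusted p = 0.000398). GOT1 changed sides with treatment: 0.10 higher under vehicle did not pass (95% interval -0.03 to 0.23, adjusted p = 0.138, but called at 0.14 to 0.16 with size factors of DESeq2, with at least 10 counts in every library, with all libraries in 1 fit and without the knockout vehicle replicate 1), whereas the difference was -0.20 ± 0.0392 under tunicamycin (adjusted p = 0.000276), with the 3 knockout libraries below the 3 control libraries.

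**Figure D4:**
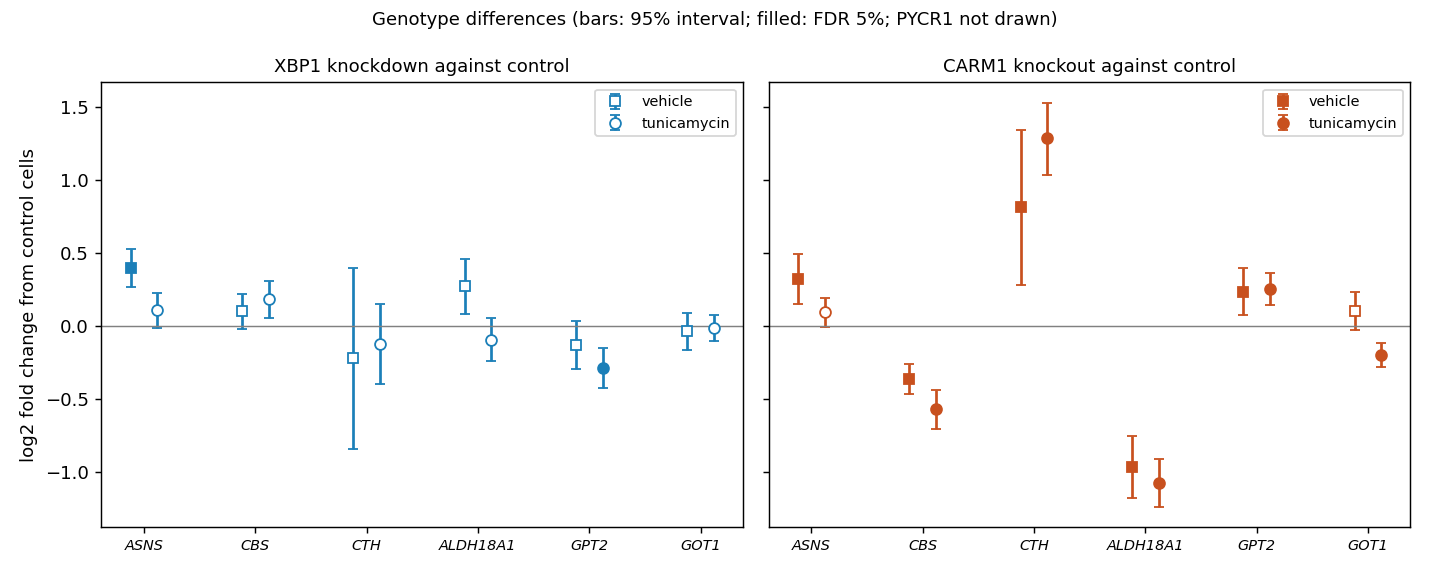
Log2 fold change of 6 enzyme transcripts in XBP1 knockdown and CARM1 knockout cells against control cells, with vehicle as squares and tunicamycin as circles, 95% intervals as bars and filled points for genes called at the FDR of 0.05. In the knockdown only ASNS with vehicle and GPT2 with tunicamycin are filled. In the knockout CTH lies above and CBS and ALDH18A1 below control under both treatments. PYCR1, near 0 counts in control cells, is not drawn.

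Ordered by mean level, CTH and GPT2 ranked the 6 groups alike, and the other enzymes each had an order of their own. For ASNS the 3 tunicamycin groups came first, at 399, 393 and 371 CPM in knockdown, knockout and control cells, and the knockdown group overlapped both of the others. Its vehicle groups followed at 64.6, 63.2 and 48.9 CPM, with knockdown and knockout overlapping. GOT1 had the same split by treatment, and its vehicle groups, at 90.5 to 102 CPM, each overlapped the next. For ALDH18A1 genotype came before treatment: both knockout groups, at 19.5 and 24.0 CPM, lay below every other library. CBS with tunicamycin in the knockout, at 255 CPM, overlapped the vehicle-treated knockdown cells, at 254 CPM. CTH was highest in the knockout with tunicamycin, at 41.7 CPM, and apart from all other groups.

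Profiles over the 6 group means of log2 CPM, each centred on its own mean, were compared by their root mean square difference. Among the enzymes ASNS and GOT1 were the closest pair, at 0.25 on the log2 scale, followed by CBS and ALDH18A1 at 0.33 and GPT2 and GOT1 at 0.49, and PYCR1 was 3.68 to 4.58 from all others. Among all genes whose mean log2 CPM reached 3, the 3 nearest to ASNS were SYVN1 (0.16), a ubiquitin ligase of ER-associated degradation, DNAJC3 (0.23), an ER co-chaperone, and GOT1. Those nearest to GOT1 were WARS1 (0.14), the cytosolic tryptophanyl-tRNA synthetase, DNAJC3 (0.20) and SYVN1 (0.20). CTH was nearest to ADM2 (0.26), CAMTA2 (0.44) and SLC3A2 (0.44), the last a subunit of amino acid exchangers. GPT2 was nearest to IBTK (0.07), the translocon subunit SEC61A1 (0.08) and LARP1B (0.10). CBS was nearest to NFKBIB, MBD6 and SETD3 (0.08 each), ALDH18A1 to TKFC (0.05), PPAT (0.06) and PNISR (0.06), and PYCR1 to ZNF542P (0.58), the metallothionein MT2A (0.58) and the matrix protein FN1 (0.60). These are descriptions over 6 points that share libraries.

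Most regulators of the amino acid response also rose under tunicamycin. Of 11 listed, 10 were higher and 1 lower in control cells (median log2 fold change 2.79), 9 and 1 in the knockout (1.88) and 10 and 1 in the knockdown (2.85). Of all genes, 22%, 20.6% and 19.2% were higher in the same order, and 19.9%, 18.8% and 19% lower. The regulator that was not called in the knockout was ATF5, at 54.0 CPM with vehicle and 47.1 with tunicamycin (log2 fold change -0.16, adjusted p = 0.139). It rose 4.45 times in control cells and 5.55 times in the knockdown. ATF4, the factor itself, went from 413, 412 and 429.7 CPM to 1461, 1392 and 1510 in control cells, a log2 fold change of 1.81 ± 0.0509 (adjusted p = 9.37e-14). It rose less in the knockout, from a mean of 545 to 1321 CPM, and the interaction was -0.52 ± 0.0561 (adjusted p = 9.97e-07). In the knockdown it rose from 423 to 1424 CPM. DDIT3, which encodes the stress factor CHOP, went from 12.7, 13.6 and 10.2 CPM to 297, 293 and 288 in control cells (4.61 ± 0.0841, adjusted p = 6.46e-16). It rose from 18.3 to 573 CPM in the knockout, where the interaction was 0.39 ± 0.117 (adjusted p = 0.0187), and from 14.2 to 319 in the knockdown. Among the others in control cells, NUPR1, ATF3 (6.50) and the ATF4 inhibitor TRIB3 (4.74) rose most, NUPR1 from 0 to 3 counts per vehicle library to 166 to 214 with tunicamycin, and ATF3 from 5 to 11 counts to 631 to 686. NUPR1 passed the filter only through tunicamycin libraries of control and knockdown cells, where it had to be higher. EIF2AK4, the GCN2 kinase that senses amino acid lack, fell by 0.34 on the log2 scale.

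Genes that surround the 7 enzymes in metabolism had lower medians, beside 0 for all genes tested in each genotype. Their counts with tunicamycin stand beside 22% of all genes higher and 19.9% lower in control cells. The shares were 20.6% and 18.8% in the knockout and 19.2% and 19% in the knockdown. Of 11 tested genes of asparagine, aspartate, alanine and glutamate metabolism, 3 were higher and 1 lower with tunicamycin in control cells (median 0.14), 2 and 1 in the knockout (0.11) and 4 and 0 in the knockdown (0.12). Those higher in control cells included BCAT1 (1.40), a branched-chain aminotransferase, and GOT2 (0.17), the mitochondrial partner of GOT1. Glutamine synthetase, GLUL, fell by 0.47 there, from 9.82 to 7.03 CPM. GLUL was at 0 in all vehicle-treated knockout libraries and at 121 to 144 counts in vehicle-treated control cells.

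Of 8 tested genes of proline, ornithine and arginine metabolism, 5 were higher and 1 lower in control cells (median 0.94), 4 and 0 in the knockout (0.33) and 5 and 1 in the knockdown (0.67). The arginase ARG2 (3.20), argininosuccinate synthetase ASS1 (3.18) and argininosuccinate lyase ASL (1.27) rose most in control cells. ASS1 stood at only 1 to 5 counts per vehicle library there. PYCRL, also called PYCR3, a reductase that makes proline, fell by 0.32 on the log2 scale in control cells, from 24.3 to 19.3 CPM (adjusted p = 0.0241), and rose from 31.7 to 41.8 CPM in the knockout (0.44, adjusted p = 6.03e-05). The interaction for PYCRL was 0.74 ± 0.130 (adjusted p = 0.000281).

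In the methionine cycle, which feeds homocysteine to CBS, 3 of 10 tested genes were higher and 1 lower in control cells (median -0.03), 4 and 1 in the knockout (0.07) and 3 and 1 in the knockdown (0.05). MTRR (0.73), AHCYL1 (0.39) and MAT2B (0.39) rose in control cells, and MAT2A, which makes S-adenosylmethionine, fell by 0.54. Of 13 genes of cysteine use and glutathione, 7 were higher and 2 lower in control cells (median 0.36), 4 and 1 in the knockout (0.03) and 6 and 2 in the knockdown (0.33). CHAC1, which degrades glutathione, rose most (4.78), from 6.81 to 186 CPM, followed by GCLC (0.88), the catalytic subunit for glutathione synthesis, and the cysteine dioxygenase CDO1 (0.77). CHAC2 fell by 1.16 and SUOX by 0.35 on the log2 scale. CDO1 was at 0 in all vehicle-treated knockout libraries, against 98 to 118 counts in vehicle-treated control cells.

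**Figure D5:**
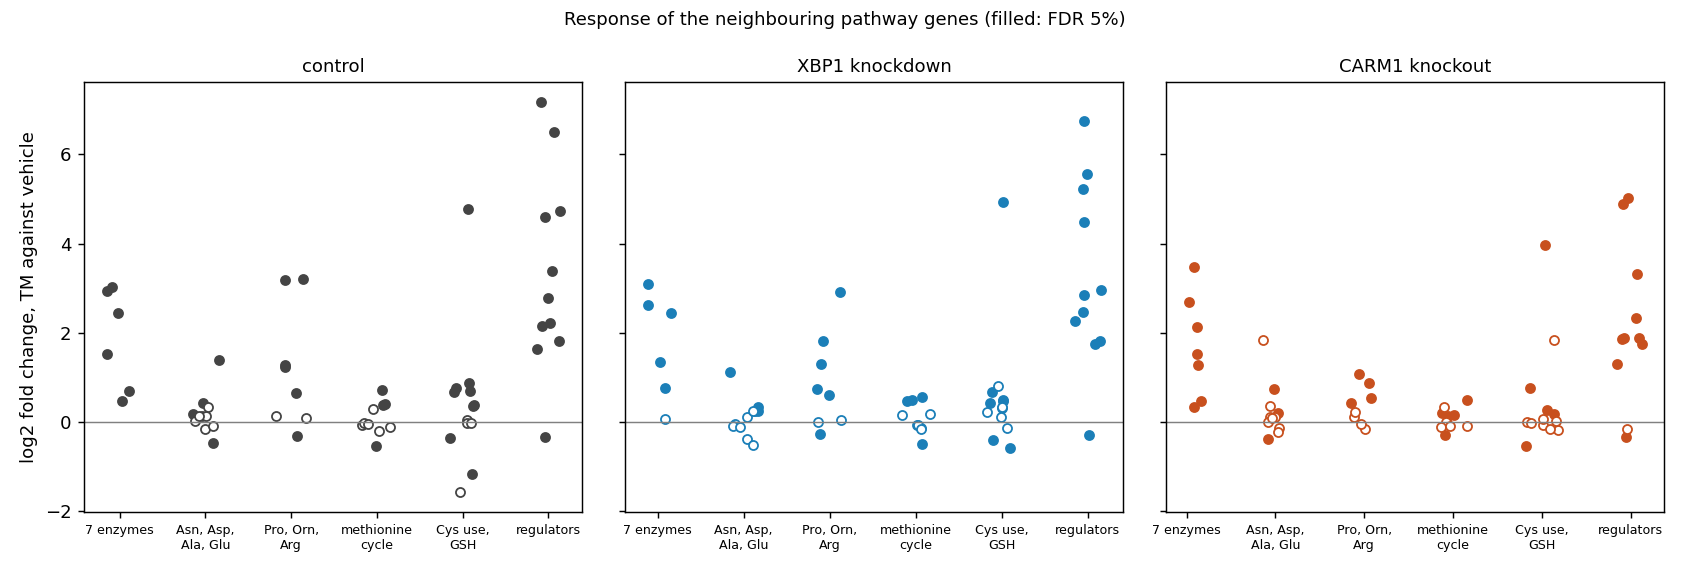
Log2 fold change with tunicamycin against vehicle in each genotype for the 7 enzymes, for 4 lists of genes around them in metabolism and for the amino acid response regulators, with each gene as a point that is filled where it was called at the FDR of 0.05. PYCR1 is drawn for the knockout alone. The enzymes and the regulators lie mostly above 0, and the lists between them have medians of -0.03 to 0.94 in control cells, highest for the proline, ornithine and arginine list.

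Between genotypes, these lists differed mostly in the knockout, where most genes of the table did. There 37.5% of all genes were higher and 36.9% lower under vehicle, and 38.4% and 36.8% under tunicamycin. In the knockdown the shares were 2.07% and 3.03%, then 6.99% and 8.55%. GLUD2 and SQRDL passed the filter only through knockout libraries. GLUL, CDO1 and MAT1A passed it only through the other genotypes, and NUPR1 only through these with tunicamycin. There they had to differ, and they are counted below. Of the 11 asparagine to glutamate genes, the knockout had 6 above and 5 below control under each treatment, against 1 and 2 in the knockdown under vehicle and 3 and 2 under tunicamycin. Of the 8 proline to arginine genes, 6 were higher and 1 lower in the knockout under vehicle and 4 and 3 under tunicamycin, against 0 and 0, then 1 and 1, in the knockdown. The methionine cycle was mostly lower in the knockout, with 1 of 10 higher and 7 lower under each treatment (medians -0.67 and -0.55), against 0 and 2, then 1 and 1, in the knockdown. Of the 13 cysteine and glutathione genes, 6 were higher and 6 lower in the knockout under vehicle and 8 and 5 under tunicamycin, against 1 and 0, then 3 and 2, in the knockdown. Of the 11 regulators, 6 were higher and 4 lower in the knockout under vehicle and 4 and 6 under tunicamycin, against 0 and 1, then 1 and 1, in the knockdown. In the interaction with the knockout, positive and negative calls were 0 and 3, 1 and 3, 1 and 1, 1 and 3, and 1 and 5 in the same order of lists. Of all genes, 10.5% were called positive and 12.4% negative. In the interaction with the knockdown edgeR called 0 of the 53 list genes tested, and 8 had an unadjusted p below 0.05. Of all genes, 0.364% were called positive there and 1.67% negative.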

How the data were processed

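RNA-seq was performed on A1847 cells in 18 libraries. The authors made 3′ mRNA libraries, read 75 nt from 1 end, used bowtie2 for alignment to hg19 and deposited RSEM's expected counts for each Ensembl gene (version 1.2.3 in the submitters' processing notes), without normalization. The values are whole numbers. Gene symbols and GRCh37 positions were found for 55501 of 57736 genes. With 3′ counts, splice forms cannot be told apart.

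Libraries were grouped by the labelled genotype and treatment. The software was edgeR 4.0.16 and DESeq2 1.42.0, run in R 4.3.3. Genes were filtered with filterByExpr (minimum count 10, over all libraries), scaled with TMM, and tested with edgeR's quasi-likelihood F test on the libraries compared, with Benjamini-Hochberg adjustment over 17317 genes at an FDR of 0.05 (two-sided). Interactions were fitted over 12 libraries. The SE was taken as the absolute log2 fold change over the root of F. Log CPM used a prior count of 2. Between replicates, chi-square per degree of freedom was 1.84 to 6.89, above counting error alone. Ratios of PYCR1 are pooled counts per pooled total with exact 95% intervals. Scripts were tested on simulated data.

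The enzymes and lists were chosen with earlier results of these data known. Named were the 7 enzymes, CARM1, XBP1, ATF4, DDIT3, up to 3 genes each way per list with the largest called change in control cells, and the 3 genes nearest in profile to each enzyme. List genes that passed the filter only through some genotypes were also named, as was ATF5, the regulator not called with tunicamycin in the knockout. Some genes of the lists are counted but not reported by name here. Alternatives were size factors of DESeq2, DESeq2, a replicate block, all libraries in 1 fit, no filter, a filter of at least 10 counts per library throughout, and each library left out. Counts and medians without PYCR1 were added after the data were seen.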

Additional observations from a re-analysis of the deposited data

Results flagged for a closer look

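The response to tunicamycin differed between CARM1 knockout and control cells, by the interaction term of edgeR, for 3 enzymes. The difference was -0.35 on the log2 scale for GOT1 (adjusted p = 0.000867), -0.27 for ASNS (adjusted p = 0.0385) and -0.26 for CBS (adjusted p = 0.0342). With 1 library left out, the GOT1 call was kept in all 12 fits, the ASNS call was lost in 10 and the CBS call in 7. Without a filter, and with at least 10 counts in every library, ASNS and CBS were not called, and with size factors of DESeq2 ASNS was not (adjusted p = 0.0528). Groups of 3 libraries were not tested for outlying samples.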

How the results depend on the processing

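The calls of the 7 enzymes for tunicamycin against vehicle were kept in all 3 genotypes under every alternative that tested them. PYCR1 was not tested under the filter of at least 10 counts in every library, which removed it. Replicate numbers did not pair the libraries, judged by the deviations of their log CPM values from the group means. Across genes, the deviations of libraries with the same number correlated at -0.048 to 0.039. In each comparison of 2 groups, at most 1 number of 3 correlated best with its own. With the replicate block, 7268, 6734 and 6191 genes were called for tunicamycin in control, knockout and knockdown cells (7258, 6836 and 6630 without it), 12614 and 12605 for the knockout under vehicle and tunicamycin (12887 and 13018), 789 and 2829 for the knockdown (883 and 2691), and 3747 and 283 for the interactions (3965 and 353). The block changed 1 enzyme call, that of CBS in the knockdown under tunicamycin (0.18, adjusted p = 0.0120). DESeq2 called 6475, 5584, 5806, 12057, 12179, 849, 2212, 3695 and 465 genes in the same order. The median over all genes moved by less than 0.1 under each scaling.

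For the knockdown under vehicle, 1378 genes were called without a filter and 1420 with all libraries in 1 fit. The enzymes higher were then 2 in each, and in the single fit 1 was lower. Leaving out 1 library gave 435 to 1234 genes and 1 to 2 enzymes higher. Under tunicamycin, 1 enzyme was higher by DESeq2, without a filter, in the single fit and with the replicate block, and leaving out 1 library gave 1523 to 2426 genes and 0 to 1 enzymes higher. For the knockout interaction, 1 enzyme was lower without a filter and with at least 10 counts in every library, and 1 to 3 with 1 library left out. For the knockdown interaction, 732 genes were called without a filter, 1 enzyme was lower by DESeq2 and without a filter, 1 was higher in the single fit, and 0 to 1 were lower with 1 library left out. The causes were not tested. When genes down to a mean log2 CPM of 1 could enter, 3 enzymes kept all 3 nearest genes, ASNS, CTH and ALDH18A1 kept 2, and PYCR1 kept 0.

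The direction of some uncalled values turned. GPT2 in the knockout interaction was 0.042 without a filter and 0.032 with at least 10 counts in every library. GOT1 in the knockdown interaction was 0.0058 with size factors of DESeq2 and by DESeq2, 0.0088 with at least 10 counts in every library, 0.012 in the single fit and 0.034 without a filter. With 1 library left out, the ranges were -0.46 to 0.45 for PYCR1 with tunicamycin in control cells, -0.072 to 0.0060 for GOT1 in the knockdown under vehicle, -0.24 to 0.0033 for CTH and -0.039 to 0.0088 for GOT1 under tunicamycin, -0.080 to 0.092 for GPT2 in the knockout interaction, and -0.14 to 0.23 for CTH and -0.043 to 0.039 for GOT1 in the knockdown interaction. At 0 to 10 counts per library, changes of PYCR1 outside the knockout are limited by depth.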
